A study of Mus musculus with 18 samples.

Results

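The 18 lymphomas of the study were ordered by their transcript of Cd8a, the alpha chain of the CD8 co-receptor, and split into the 9 with the highest and the 9 with the lowest level. The groups were chosen by the measured Cd8a ratio, which puts all 18 lymphomas to use, 9 as the Cd8a-higher group and 9 as the Cd8a-lower group. The lymphomas arose in Atm-/-, mTerc-/-, p53-/- triple knock-out mice, which lack a kinase that signals DNA breaks (Atm), the RNA template of telomerase (mTerc) and the tumour suppressor p53. Each was compared on 2-colour arrays, with the dyes swapped in a second hybridisation, against 1 common RNA of thymus from healthy mice, 3 weeks of age and heterozygous for p53. Both groups share the 3 deletions and the same reference. They are not groups of the study's own, so Cd8a is described and every other gene is asked only whether it went with Cd8a. The labels do not give the age of the tumour-bearing mice, the organ from which a lymphoma was taken, its surface phenotype or the share of tumour cells in it. Nor do they state that each tumour is from another mouse, while each p-value here takes the samples as independent. Such p-values could be too small if tumours shared a mouse, and they speak only for these samples.

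CD8 is a co-receptor that binds MHC class I beside the T cell receptor, and its alpha and beta chains are encoded by the neighbouring genes Cd8a and Cd8b1. In the thymus the youngest T cell precursors carry neither CD4 nor CD8 (double-negative stage), cortical thymocytes then carry both (double-positive stage), and mature cells keep one of them. Cortical double-positive cells make up most of a young thymus and rearrange their T cell receptor alpha genes with the recombinase encoded by Rag1 and Rag2.

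Cd8a lay below the thymus reference in every lymphoma, on 3 probes averaged per lymphoma. Values are log2 ratios of lymphoma to thymus, a direction that is likely but not stated in the labels, and the base of the deposited logarithm was inferred. In the Cd8a-higher group the log2 ratio was -0.89 in lymphoma 18, -1.23 in lymphoma 17, -1.29 in lymphoma 12, -1.30 in lymphoma 13, -1.56 in lymphoma 6, -1.58 in lymphoma 11, -1.61 in lymphoma 1, -1.71 in lymphoma 16 and -2.28 in lymphoma 5. In the Cd8a-lower group it was -2.30 in lymphoma 15, -2.46 in lymphoma 9, -2.55 in lymphoma 7, -3.04 in lymphoma 2, -3.71 in lymphoma 8, -4.24 in lymphoma 10, -4.49 in lymphoma 4, -4.58 in lymphoma 14 and -5.24 in lymphoma 3. The level thus ran from 1.86-fold to 37.7-fold below thymus. The border between the groups fell between lymphomas 5 and 15, whose values are nearly equal, while the widest step in the order, 0.67, lay between lymphomas 2 and 8 and parted 13 lymphomas from 5. Ordering by a single probe exchanged 0 lymphomas between the groups for the first probe and 1 for each of the other probes. The second probe put lymphoma 7 in the Cd8a-higher group in place of lymphoma 5, and the third put lymphoma 15 there in its place. In bulk tissue, fewer cells of a type and less RNA per cell cannot be told apart, here or in any result that follows.

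**Figure D1:**
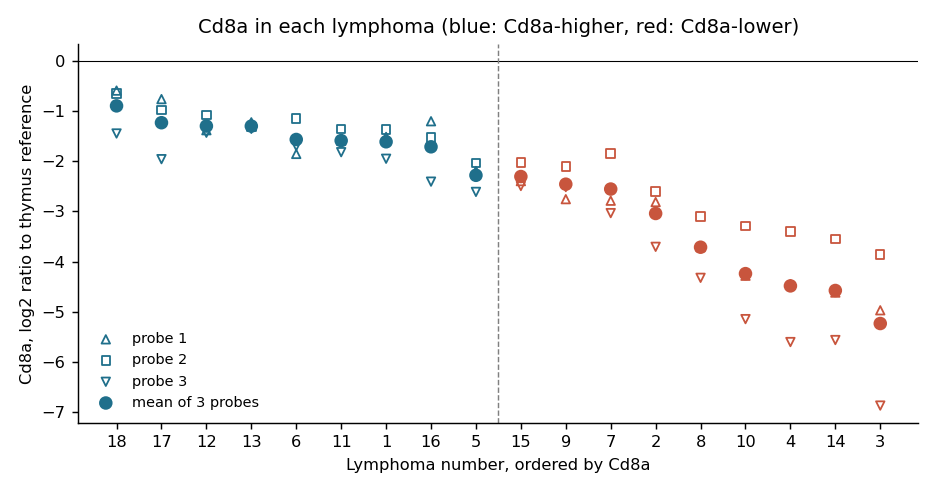
Cd8a in each lymphoma as the log2 ratio to the thymus reference (vertical axis), with lymphomas ordered along the horizontal axis. Open symbols are the 3 probes, filled circles their mean, blue the Cd8a-higher and red the Cd8a-lower group; the dashed line marks the border, where lymphomas 5 and 15 lie at -2.28 and -2.30.

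Some arrays stood apart before any comparison. The median correlation of an array with the other arrays was 0.143 for lymphoma 7, 0.258 for lymphoma 14 and 0.288 for lymphoma 12, against 0.537 to 0.655 for the remaining 15. Lymphoma 12, in the Cd8a-higher group, lay close to thymus, with a mean of 0.37 over 16 thymic epithelium genes where the other 17 lymphomas lay between -4.31 and -1.01. Over 15 T cell surface genes, lymphomas 14, 3 and 7, all in the Cd8a-lower group, had the lowest means, at -3.38, -2.49 and -1.84. Lymphomas 1, 2, 3, 5, 15, 17 and 18, of which 4 are in the Cd8a-higher group, had macrophage list means of -3.31 to -2.69, against -0.62 to 1.53 in the others. Many of the larger shifts of gene lists without lymphomas 7, 12 and 14, or with lymphoma 7 exchanged for lymphoma 5 by the second Cd8a probe, are given beside them.

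Of 18146 genes tested besides Cd8a, 0 passed an adjusted p under 0.05 between the groups (limma with Benjamini-Hochberg adjustment, smallest adjusted p = 0.493). At an unadjusted p under 0.05 in the same limma fit there were 1110 genes, 6.12% of those tested, of which 622 (3.43%) were at the higher level in the Cd8a-higher group and 488 (2.69%) at the lower level. Adjustment therefore leaves no gene called, and the values that follow are differences with their errors, none of which passed. The median difference over all genes was 0.01 on the log2 scale, 51.2% of genes lay above 0, and the median standard error (SE) was 0.25. A difference of at least 1 on the log2 scale, 2-fold, was seen toward the Cd8a-higher group for 167 genes (0.92%) and toward the Cd8a-lower group for 393 (2.17%). The values of the groups did not overlap for 3 genes (0.0165%), all higher in the Cd8a-higher group, and for 0 genes in the other direction. Those genes, singled out for this property, were Rmnd5a, Plppr5 and 1810019N24Rik.

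Genes beside Cd8a on chromosome 6 lay higher in the Cd8a-higher group, foremost Cd8b1 and Rmnd5a, the nearest measured genes on either side. Cd8b1, the beta chain of the co-receptor, lay at -1.99, -1.05 and -0.25 (lowest, median and highest log2 ratio) in the Cd8a-higher group and at -7.90, -4.15 and -1.17 in the Cd8a-lower group. The groups overlapped only through lymphoma 15 at -1.17, above 4 lymphomas of the Cd8a-higher group, while lymphoma 9 at -2.14 lay below them all. The difference was 2.96 (SE 0.63), 7.77-fold (limma p = 1.69e-04, adjusted p = 0.534). Rmnd5a, a subunit of a ubiquitin ligase complex, was first of all genes by p. Its log2 ratios were -2.51, -2.03 and -0.85 in the Cd8a-higher group and -3.63, -3.19 and -2.52 in the Cd8a-lower group. Every lymphoma of one group lay above every lymphoma of the other, though lymphoma 5 at -2.51 and lymphoma 4 at -2.52 nearly touched. The difference was 1.13 (SE 0.22), 2.19-fold (limma p = 4.76e-05, adjusted p = 0.493), and its 4 probes gave 0.91, 1.01, 0.97 and 1.63.

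Of the 5 nearest measured genes on each side of Cd8a, 10 of 10 had a difference above 0, against 51.2% of all genes, and 3 of 10 had an unadjusted p under 0.05 in that direction, against 3.43%. Their median difference was 0.48, and 0.41 for the 8 other than Cd8b1 and Rmnd5a. The third was Chmp3, a subunit of the membrane-cutting ESCRT machinery, with a difference of 0.51 (SE 0.23, limma p = 0.0396, adjusted p = 0.791). By the second Cd8a probe it was 0.24 (limma p = 0.348, adjusted p = 0.846). Chmp3 kept its direction in 35 of 35 alternative limma fits, with an unadjusted p under 0.05 in 15. Thnsl2, which encodes a threonine synthase-like protein and lies 5 measured genes before Cd8a, differed by 0.88 (SE 0.43, limma p = 0.0541, adjusted p = 0.791). Krcc1 differed by 0.35 (SE 0.21), and the remaining 5 neighbours by 0.11 to 0.65. In the 35 alternative fits Thnsl2 had an unadjusted p under 0.05 in 13 and Krcc1 in 3, both with the direction kept in all. The groups overlapped for each of the 8 neighbours other than Cd8b1 and Rmnd5a. Whether the DNA copy number of the region differed between lymphomas was not tested.

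**Figure D2:**
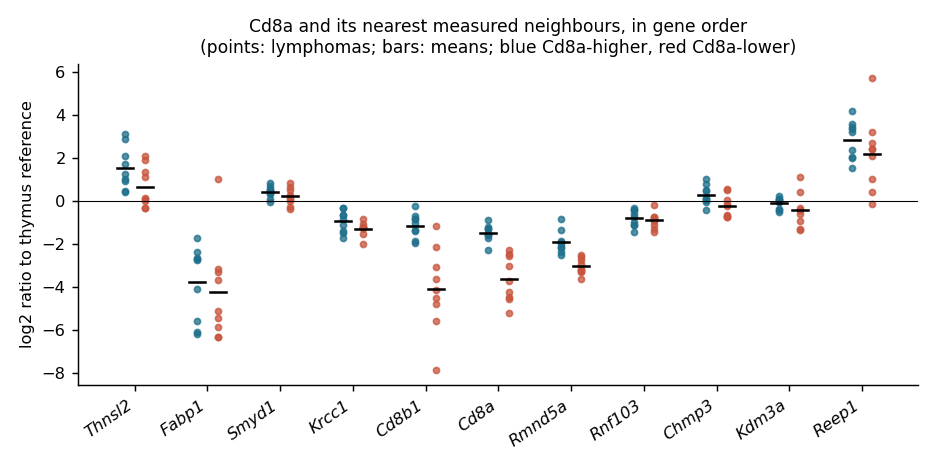
Log2 ratio to the thymus reference (vertical axis) of Cd8a and the 5 nearest measured genes on each side, in gene order along the horizontal axis. Points are lymphomas, blue Cd8a-higher and red Cd8a-lower, and bars are group means; Cd8b1 and Rmnd5a show the widest and the cleanest parting, with differences of 2.96 and 1.13, and the Cd8a values chose the groups.

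The sequence before the start of Cd8a is shown beside those of its neighbour Rmnd5a and of Rag2, the double-positive gene of smallest p after Cd8b1, so that the letters can be compared. They are RefSeq sequences of assembly GRCm38.p6, from 250 bases before to 50 bases after each gene's start, written 5′ to 3′ on the gene's strand. They lie at chr6:71373177-71373476 (plus strand) for Cd8a, chr6:71440588-71440887 (minus strand) for Rmnd5a and chr2:101624462-101624761 (plus strand) for Rag2. Capitals mark the E-box CANNTG, bound by the E proteins of lymphocytes, and the Runx cores TGTGGT and TGCGGT, searched on both strands.
Cd8a: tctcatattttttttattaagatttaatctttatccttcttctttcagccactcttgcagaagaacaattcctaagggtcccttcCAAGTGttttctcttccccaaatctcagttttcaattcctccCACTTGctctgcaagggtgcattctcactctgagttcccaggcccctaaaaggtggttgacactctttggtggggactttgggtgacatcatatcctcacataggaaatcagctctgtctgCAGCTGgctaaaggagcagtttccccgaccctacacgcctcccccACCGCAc
Rmnd5a: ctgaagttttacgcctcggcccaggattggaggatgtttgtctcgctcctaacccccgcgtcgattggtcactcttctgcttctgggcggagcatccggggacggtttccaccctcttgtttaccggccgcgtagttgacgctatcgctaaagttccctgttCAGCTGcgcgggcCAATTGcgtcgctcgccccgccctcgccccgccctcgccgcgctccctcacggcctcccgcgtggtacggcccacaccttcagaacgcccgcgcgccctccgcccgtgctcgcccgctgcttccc
Rag2: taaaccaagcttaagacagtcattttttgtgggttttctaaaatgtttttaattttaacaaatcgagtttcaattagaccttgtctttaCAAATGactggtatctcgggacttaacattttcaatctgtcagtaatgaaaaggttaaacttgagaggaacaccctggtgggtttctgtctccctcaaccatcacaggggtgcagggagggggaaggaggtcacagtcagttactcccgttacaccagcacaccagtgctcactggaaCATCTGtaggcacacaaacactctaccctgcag
The Cd8a window holds 3 E-boxes and 1 Runx core, TGCGGT on the minus strand, and no marked stretch overlaps another. The Rmnd5a and Rag2 windows hold 2 E-boxes each and 0 Runx cores. Of 32851 promoters of 300 bases in the same table, 72.31% hold the E-box, 16.76% hold TGTGGT, 6.453% hold TGCGGT and 22.41% hold either core. A match describes the letters and is not a binding site.

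The genes of cortical double-positive thymocytes lay higher in the Cd8a-higher group. All 17 measured genes of this list had a difference above 0, with a median of 0.83 against 0.01 over all genes, and 7 of 17 had an unadjusted p under 0.05, against 3.43% of all genes in that direction. None passed the adjusted p (smallest 0.534), and Cd8b1 is among the 7. With the groups set by the second Cd8a probe, 15 of 17 lay above 0, the median was 0.39 and 2 of 17 had an unadjusted p under 0.05. Rag2, the partner of Rag1 in the recombinase, lay at -1.37, -0.77 and -0.28 (lowest, median, highest) in the Cd8a-higher group and at -3.26, -2.16 and -0.74 in the Cd8a-lower group. Lymphomas 9 and 2, at -0.74 and -1.17, were the 2 Cd8a-lower lymphomas inside the range of the other group. Its difference was 1.27 (SE 0.30), 2.41-fold (limma p = 4.76e-04, adjusted p = 0.711).

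Rag1, the catalytic subunit of the recombinase, lay at -3.71, -2.07 and -1.08 in the Cd8a-higher and at -4.98, -2.81 and -2.45 in the Cd8a-lower group, a difference of 1.11 (SE 0.42, limma p = 0.0165, adjusted p = 0.791). The ranges overlapped widely, since lymphomas 5 and 13 of the Cd8a-higher group lay at -3.71 and -3.52. Cd4, the co-receptor for MHC class II, lay at -1.41, -0.64 and 0.43 in the Cd8a-higher group and at -2.05, -1.61 and -0.46 in the Cd8a-lower group. Both co-receptors were thus at the lower level in the same group, with a Cd4 difference of 0.77 (SE 0.26, limma p = 0.00669, adjusted p = 0.791). Without the 7 lymphomas with few macrophage markers it was 0.41 (p = 0.251, adjusted p = 0.992). Dntt, the template-independent polymerase that adds bases at receptor joints, differed by 1.53 (SE 0.66, p = 0.0324, adjusted p = 0.791 in limma). Its lowest values, -6.40 and -4.52, were those of lymphomas 7 and 14, and the other Cd8a-lower lymphomas lay between -3.03 and -0.25. Arpp21, an RNA-binding phosphoprotein of cortical thymocytes, differed by 1.25 (SE 0.51) and Slamf1, a receptor of the SLAM family, by 0.83 (SE 0.34), each with an adjusted p of 0.791 in limma. Themis, an adaptor needed for positive selection, differed by 0.99 (SE 0.52, p = 0.0703, adjusted p = 0.791), and Ccr9, the receptor for the thymic chemokine Ccl25, by 0.50 (SE 0.54).

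The double-positive list mean was -1.38 to -0.64 in the Cd8a-higher group and -3.62 to -0.96 in the Cd8a-lower group, with lymphomas 14, 7 and 3 the lowest at -3.62, -3.21 and -2.40. Without lymphomas 7, 12 and 14, 15 of 17 genes lay above 0, the median was 0.47 and 3 of 17 had an unadjusted p under 0.05. Rag2 then differed by 0.96, Rag1 by 0.55, Dntt by 0.58, Arpp21 by 0.53 and Slamf1 by 0.55, and the unadjusted p was 0.00326 for Rag2 and at least 0.0805 for the other 4 (limma, adjusted p = 0.838 for Rag2). By the second Cd8a probe, Rag2 differed by 0.82, Rag1 by 0.83, Dntt by 0.39, Arpp21 by 0.28 and Slamf1 by 0.43.

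**Figure D3:**
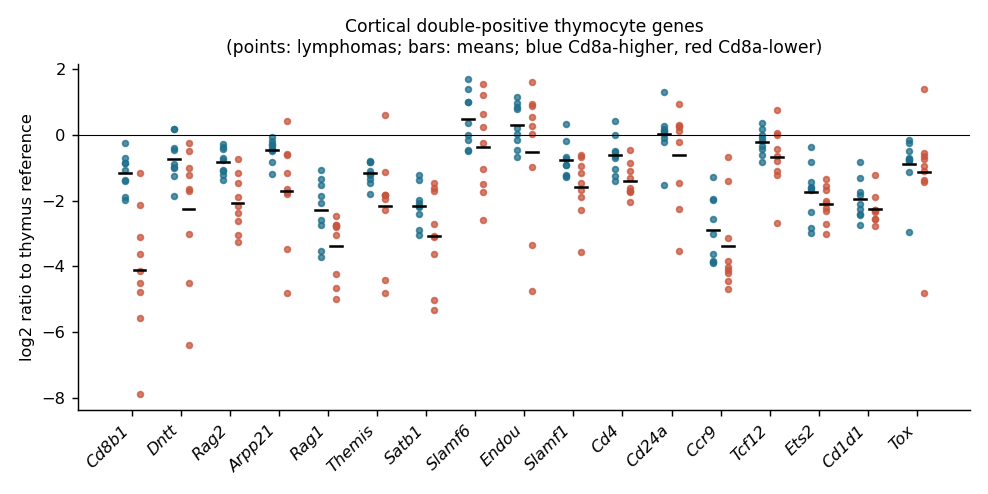
Log2 ratio to the thymus reference (vertical axis) of the 17 measured genes of cortical double-positive thymocytes (horizontal axis), ordered by the difference between groups. Points are lymphomas, blue Cd8a-higher and red Cd8a-lower, and bars are group means; the means are higher in blue for 17 of 17 genes while the ranges overlap for each of them.

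Genes of the stages before and after had medians nearer 0 in the main comparison, an order that did not hold in every split. Of 18 progenitor and double-negative genes, 6 lay above and 12 below 0, with a median of -0.19 and 0 at an unadjusted p under 0.05 in either direction. Their differences ran from -1.135 to 0.67, and the smallest limma p of the list was 0.0748. When lymphomas 7, 12 and 14 were left out, 9 lay above and 9 below 0 (median -0.024). The direction turned in some fits. Quantile normalization gave 10 above and 8 below 0 (median 0.012). With the mean of the 4 CD3 chain genes as a covariate, 11 lay above and 7 below (median 0.13). With the fibroblast list mean as a covariate, 15 lay above and 3 below (median 0.24). At the widest step in Cd8a, 4 lay above and 14 below (median -0.65). Il2ra, the interleukin receptor chain of late double-negative cells, spanned -1.12 to 3.22 (median 0.62) in the Cd8a-higher group and -2.12 to 5.56 (median -0.68) in the Cd8a-lower group. Its highest value, 5.56, was that of lymphoma 3, which also had the lowest Cd8a. The Il2ra difference lay above 0, unlike those of 12 of the 18 genes. The stem cell factor receptor Kit had medians of -1.27 and -0.81, with values from -3.38 to 1.60 and from -3.26 to 1.22. Of 16 mature T cell genes, 10 lay above 0 (median 0.09), with differences from -0.90 to 1.29. Of the 16, against 3.43% of all genes in that direction, 1 had an unadjusted p under 0.05, the GTPase Gimap7 (difference 0.87, SE 0.33, limma p = 0.0173, adjusted p = 0.791). Ccr7, the lymph node homing receptor, had medians of -2.81 and -2.63, and Klf2, a regulator of egress, 0.15 and -0.02. The mature list stood at 13 of 16 above 0 without lymphomas 7, 12 and 14 (median 0.40) and by the second Cd8a probe (median 0.59). The double-positive medians in those fits were 0.47 and 0.39, so by the second probe the mature list lay higher. Since no gene of these lists passed, the groups are called here by their Cd8a level alone.

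Regulators of the Cd8 genes were near level. Of 19 measured, 13 lay above 0 with a median of 0.14, and 0 had an unadjusted p under 0.05. The median turned to -0.09 without lymphomas 7, 12 and 14 and to -0.07 by the second Cd8a probe. Runx3, which sustains Cd8 in the cytotoxic lineage, had medians of 0.83 in the Cd8a-higher and 0.66 in the Cd8a-lower group, and Runx1, which acts in earlier thymocytes, 1.21 and 1.20. The widest difference was that of Satb1, a chromatin organiser of thymocytes, at 0.92 (SE 0.48, limma p = 0.0708, adjusted p = 0.791). Its values ran from -3.05 to -1.23 in the Cd8a-higher and from -5.32 to -1.46 in the Cd8a-lower group. Zbtb7b (ThPOK), which represses Cd8 in CD4 cells, was at -0.74 (SE 0.48, limma p = 0.141, adjusted p = 0.795), with medians of -1.23 and -0.69. Patz1, a zinc finger protein that binds Cd8 enhancers, differed by 0.50 (SE 0.31).

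Among 15 CD3 chains and T cell surface genes, 13 lay above 0 with a median of 0.65. An unadjusted p under 0.05 was found for 3 of 15, against 3.43% of all genes in that direction, namely Cd8b1, Cd4 and Cd6. The former pair is shared with the double-positive list. The list median was 0.47 without lymphomas 7, 12 and 14 (12 of 15 above 0) and 0.43 by the second Cd8a probe (13 of 15). Cd6, a receptor for the adhesion molecule ALCAM, lay at -1.83, -0.82 and 0.26 in the Cd8a-higher and at -4.72, -1.68 and -0.30 in the Cd8a-lower group (difference 1.26, SE 0.48, limma p = 0.0172, adjusted p = 0.791). Lymphomas 3, 14 and 8 were the lowest, at -4.72, -3.36 and -2.84. The signalling chains of CD3 had close medians in both groups, 0.15 and -0.03 for Cd3d, 0.36 and 0.34 for Cd3e and -0.55 and -0.46 for Cd3g, with lymphoma 14 at -3.48, -1.90 and -4.99. Ptcra, the surrogate alpha chain of the pre-T cell receptor, differed by 1.85 (SE 0.94, limma p = 0.0644, adjusted p = 0.791). Lymphomas 7, 8 and 14 were far below the rest, at -4.43, -4.02 and -3.58, while the remaining 15 lymphomas lay between -0.67 and 2.92. Without lymphomas 7, 12 and 14 the difference in Ptcra was 0.91. Cd2 differed by 1.15 (SE 0.72), Cd96 by 1.07 (SE 0.53) and the costimulatory receptor Cd28 by 0.78 (SE 0.41), all with overlapping ranges.

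Transcripts of receptor chains varied widely between single lymphomas. Trav14n-1, a variable segment of the alpha chain, lay at -1.83, -1.19 and 0.29 in the Cd8a-higher and at -4.81, -3.13 and -0.57 in the Cd8a-lower group (difference 2.09, SE 0.48, limma p = 3.39e-04, adjusted p = 0.683). A second segment, Trav5-4, differed by 0.51 (SE 0.24, p = 0.0475, adjusted p = 0.791), and the 3 other alpha variable segments measured lay between 0.01 and 0.14. The probe named Tcra spanned -0.84 to 5.65 and -1.53 to 3.57, a difference of 1.49 (SE 0.83, p = 0.0900, adjusted p = 0.793). Variable segments are close copies of one another, so a probe can read more than 1 of them. In the list on T cell receptor signalling, 16 of 20 genes lay above 0 (median 0.30). Of the 20, against 3.43% of all genes in that direction, 2 had an unadjusted p under 0.05. They were the Ras activator Rasgrp1 (0.90, SE 0.41) and the adaptor Trat1 (1.29, SE 0.62), at an adjusted p of 0.791 in limma. Without lymphomas 7, 12 and 14 the median was 0.06, with 12 of 20 above 0 and 0 at an unadjusted p under 0.05, and by the second Cd8a probe it was 0.18, with 0 higher and 1 lower.

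The Notch pathway showed no common direction. Of 18 genes, 8 lay above 0 (median -0.21), 0 had an unadjusted p under 0.05 toward the Cd8a-higher group and 2 toward the Cd8a-lower group, against 2.69% of all genes. These were the ligand Jag1 (-1.17, SE 0.48, limma p = 0.0238, adjusted p = 0.791) and Rbpj, the DNA-binding partner of cleaved Notch (-0.56, SE 0.24, p = 0.0299, adjusted p = 0.791). Jag1 reached 3.41 in lymphoma 7 where the other Cd8a-lower lymphomas were at most 1.03. Its difference was -0.13 by the second Cd8a probe, where 0 of 18 genes had an unadjusted p under 0.05, and the list median turned to 0.027 by the third. The receptor Notch1 was high in most lymphomas, at 1.59, 4.02 and 6.28 in the Cd8a-higher and -1.84, 4.06 and 5.24 in the Cd8a-lower group. Lymphomas 8, 7 and 14, at -1.84, -0.79 and 0.08, were the lowest, and the same lymphomas were lowest for Ptcra. The difference of 1.61 (SE 0.92, p = 0.0983, adjusted p = 0.795) did not exceed the spread, and the medians were close. Notch3 differed by 0.90 (SE 0.46) and the Notch target Dtx1 by 1.43 (SE 0.88).

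Cytotoxic and CD4 lineage genes were mixed. Of 17 CD8 and cytotoxic effector genes, 8 lay above 0 (median -0.15), and 1 in each direction had an unadjusted p under 0.05. The shares over all genes were 3.43% higher and 2.69% lower. The median turned to 0.17 without lymphomas 7, 12 and 14 and to 0.20 by the second Cd8a probe, where neither gene had such a p. Gzma, a granule protease, lay at -0.32, 2.41 and 3.37 in the Cd8a-higher and -2.72, 0.07 and 3.37 in the Cd8a-lower group (difference 1.87, SE 0.80, limma p = 0.0297, adjusted p = 0.791). Without lymphomas 7, 12 and 14 it differed by 1.10 (p = 0.179, adjusted p = 0.838). Ifng, the effector cytokine, was at -1.42 (SE 0.61, p = 0.0308, adjusted p = 0.791), with lymphoma 12 the highest of its group at 1.10. The pore protein Prf1 differed by 0.60 (SE 0.43) and the integrin Itgae by 0.97 (SE 0.80). Of 11 CD4 lineage and regulatory T cell genes 8 lay above 0, with 0 at an unadjusted p under 0.05.

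Replication genes were slightly higher in the Cd8a-higher group. Of 27 cell cycle and DNA replication genes 23 lay above 0 with a median of 0.26, and 6 had an unadjusted p under 0.05, against 3.43% of all genes in that direction (adjusted p = 0.791 for each in limma). All 6 act in DNA replication or in the supply of its nucleotides, namely the licensing factor Cdt1 (0.52, SE 0.21), the helicase subunits Mcm5 (0.50, SE 0.21), Mcm3 (0.48, SE 0.21) and Mcm6 (0.43, SE 0.20), the sliding clamp Pcna (0.46, SE 0.20) and the ribonucleotide reductase subunit Rrm2 (0.57, SE 0.26). Mcm5 lay at 0.55, 1.29 and 1.37 in the Cd8a-higher and at -0.57, 0.70 and 1.34 in the Cd8a-lower group. Lymphoma 14 was the lowest of all for Mcm3 and Rrm2, at -0.46 and -1.71. Without lymphomas 7, 12 and 14 the list median was 0.08, and 2 of 27 had an unadjusted p under 0.05. By the second Cd8a probe it was 0.14, with 0 of 27. The nucleotide synthesis enzyme Prps2 differed by 1.08 (SE 0.31, p = 0.00239, adjusted p = 0.791), and 7 of the 9 Cd8a-higher lymphomas lay above every Cd8a-lower lymphoma.

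Among 16 cyclins, kinases and their inhibitors, 6 lay above and 10 below 0, with a median of -0.07. In that list 1 gene was higher and 2 were lower at an unadjusted p under 0.05, against 3.43% and 2.69% of all genes. Some inhibitors had wider differences toward the Cd8a-lower group. Cdkn2a, which encodes p16Ink4a and p19Arf, lay at -2.71, 3.08 and 3.87 in the Cd8a-higher and at 2.33, 3.88 and 4.02 in the Cd8a-lower group. The difference of -1.96 (SE 0.83, limma p = 0.0288, adjusted p = 0.791) came from 3 Cd8a-higher lymphomas, numbers 5, 18 and 13, at -2.71, -1.92 and -0.28. The other 15 lymphomas all lay at or above 2.19. With lymphoma 7 exchanged for lymphoma 5 by the second Cd8a probe, the difference was -0.46. Cdkn1c (p57) was at -1.49 (SE 0.64, p = 0.0306, adjusted p = 0.791) and Cdkn2b at -1.41 (SE 0.79), while Cdkn1b (p27) differed by 0.36 (SE 0.14, p = 0.0189, adjusted p = 0.791). Of 14 p53 target genes 7 lay above 0 with a median of 0.01. Of these, 3 had an unadjusted p under 0.05 in the Cd8a-higher direction, Trp53inp1 (1.17, SE 0.41), Sesn1 (0.47, SE 0.18) and Btg2 (0.66, SE 0.29), and 1 in the other, Plk2 (-1.58, SE 0.66), at an adjusted p of 0.791 in limma. The shares over all genes were 3.43% and 2.69%. By the second Cd8a probe, and likewise without lymphomas 7, 12 and 14, 0 of 14 had such a p in either direction. All lymphomas lack p53. Bid, a pro-death member of the Bcl2 family, differed by 0.70 (SE 0.28), where 13 survival and death genes had a median of 0.05. Myb, a transcription factor of immature T cells, differed by 1.17 (SE 0.52), where 13 T lineage transcription factors had a median of 0.19. Myb was lowest in lymphoma 14, at -5.41, and differed by 0.43 without lymphomas 7, 12 and 14.

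Interferon response genes leaned toward the Cd8a-lower group. Of 19 measured, 18 lay below 0, with a median of -0.70 and 0 at an unadjusted p under 0.05. A few lymphomas stood out, since the list mean lay above 0 only in Cd8a-lower lymphomas 14, 3 and 7 (1.26, 0.94 and 0.63) and Cd8a-higher lymphoma 12 (0.27). All others, in both groups, lay between -2.03 and -0.57. Gbp2, a guanylate-binding protein, had the smallest p of the list (-1.20, SE 0.59, limma p = 0.0552, adjusted p = 0.791), followed by the antiviral genes Mx1 (-0.92, SE 0.53) and Oas2 (-0.80, SE 0.46). Without the 7 lymphomas with few macrophage markers, 14 of 19 lay below 0 and the median was -0.24. It was -0.44 without lymphomas 7, 12 and 14, and by the second Cd8a probe it was -0.20, with 13 of 19 below 0. Among 16 T leukaemia oncogenes 13 lay below 0 (median -0.34) with 0 at an unadjusted p under 0.05. The median was -0.19 without lymphomas 7, 12 and 14 and -0.099 by the second Cd8a probe, with 11 of 16 below 0. Glycolysis genes had a median of -0.29, with 11 of 13 below 0. Of the 13, against 2.69% of all genes in that direction, 1 was at an unadjusted p under 0.05, pyruvate kinase Pkm (-0.73, SE 0.33, limma p = 0.0368, adjusted p = 0.791). The direction of this list turned by the third Cd8a probe, with 9 of 13 above 0 (median 0.056), and at the widest step in Cd8a, with 8 of 13 above 0 (median 0.09). The cytokine receptor Il21r differed by 1.15 (SE 0.42, limma p = 0.0133, adjusted p = 0.791), where 14 cytokine receptor and Jak-Stat5 genes had a median of 0.02.

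Further genes were taken by p among those with a difference of at least 1, 15 in each direction, none of which passed. Toward the Cd8a-higher group the differences ran from 1.06 to 2.96. Myl10, a myosin light chain of precursor lymphocytes, lay at -2.07, 0.08 and 0.75 in the Cd8a-higher and at -5.46, -4.02 and -0.58 in the Cd8a-lower group (difference 2.82, SE 0.62, limma p = 2.33e-04, adjusted p = 0.553). Zfp882, a zinc finger gene, lay at -0.79, -0.13 and 0.31 against -2.01, -1.09 and -0.50 (difference 1.06, SE 0.21, p = 5.44e-05, adjusted p = 0.493), with 8 of 9 Cd8a-higher lymphomas above every Cd8a-lower one. Mr1, the MHC-like molecule that presents vitamin metabolites to innate-like T cells, kept to -1.06 to -0.37 in the Cd8a-higher group and spread from -2.86 to -0.54 in the Cd8a-lower group (difference 1.08, SE 0.23, p = 1.77e-04, adjusted p = 0.534). Lymphoma 8, at -0.54, was the single Cd8a-lower lymphoma inside the range of the others. Without it, Mr1 alone passed (difference 1.24, limma adjusted p = 0.0477). That fit removes the value that crossed and is 1 of 18 that each leave out 1 lymphoma, so it gives Mr1 no separate support. The death domain adaptor Edaradd (1.11, SE 0.28) and the muscle-type AMP deaminase Ampd1 (1.18, SE 0.34) were also among the 15.

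Toward the Cd8a-lower group the 15 differences ran from -2.43 to -1.07. Mafg, a small Maf transcription factor, lay at -0.28, 0.57 and 1.02 in the Cd8a-higher and at 0.46, 1.81 and 2.26 in the Cd8a-lower group (difference -1.16, SE 0.24, limma p = 1.21e-04, adjusted p = 0.534). Ctbp2, a transcriptional corepressor, lay at -2.78, -1.42 and 0.47 against -2.24, 1.24 and 2.60 (difference -2.23, SE 0.60, p = 0.00142, adjusted p = 0.791). Bmp8a, a bone morphogenetic protein, differed by -1.18 (SE 0.31), the homeodomain cofactor Hopx by -1.80 (SE 0.49) and the actin-sequestering Tmsb10 by -1.25 (SE 0.38). Gjc1, a gap junction connexin, differed by -2.43 (SE 0.63). Several of the 15, among them Col6a1 and Col1a1, are genes of connective tissue.

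Fibroblast and matrix genes lay at the lower level in the Cd8a-higher group. All 12 had a difference below 0, with a median of -1.40, and 5 of 12 had an unadjusted p under 0.05, against 2.69% of all genes in that direction. Col6a1, a chain of type VI collagen, lay at -3.02, -1.83 and 0.61 in the Cd8a-higher and at -2.05, 0.92 and 3.42 in the Cd8a-lower group (difference -2.31, SE 0.62, limma p = 0.00147, adjusted p = 0.791). The chains of type I collagen differed by -2.09 (Col1a1, SE 0.64) and -2.63 (Col1a2, SE 1.03), the matrix protein Sparc by -2.38 (SE 0.999) and fibronectin Fn1 by -1.11 (SE 0.50). Postn at -1.76 (SE 0.87) and Col3a1 at -1.68 (SE 0.84) had p-values of 0.0571 and 0.0596 (limma, adjusted p = 0.791). The list mean was -2.55, -0.19 and 1.20 (lowest, median, highest) in the Cd8a-higher group and -1.15, 1.18 and 4.20 in the Cd8a-lower group, where lymphoma 14 was highest.

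The same matrix level moved beside the T cell results. With the fibroblast list mean as a covariate, a fit added after the values were seen, 16 of 17 double-positive genes lay above 0, the median was 0.56 and 3 of 17 had an unadjusted p under 0.05. In that fit Cd8b1 differed by 3.18, Rmnd5a by 1.21 and Rag2 by 1.24, while Dntt differed by 1.08 (unadjusted p = 0.157) and Slamf1 by 0.39 (unadjusted p = 0.245), with an adjusted p of 0.967 for both in limma. The median of the T cell receptor signalling list was -0.0071 there, with 10 of 20 above 0. The cell cycle list had a median of 0.05 and 0 of 27 genes at an unadjusted p under 0.05 there, against 0.26 and 6 without the covariate. With the mean of the 4 CD3 chain genes as a covariate instead, also added afterwards, the double-positive median was 0.61 and 7 of 17 had an unadjusted p under 0.05. Without the 7 lymphomas with few macrophage markers, the fibroblast median was -0.93 and 1 of 12 genes had an unadjusted p under 0.05. The median was -1.12 without lymphomas 7, 12 and 14, with 3 of 12. It was -1.005 with 1 of 12 by the second Cd8a probe and -0.75 with 0 of 12 by the third. Endothelial genes had a median of -0.61 (11 of 12 below 0) and macrophage genes of -0.32 (15 of 15 below 0), with 0 at an unadjusted p under 0.05 in either list. The endothelial median was -0.23 without lymphomas 7, 12 and 14, and 9 of 15 macrophage genes lay below 0 (median -0.21). By the second Cd8a probe the macrophage list turned, with 10 of 15 above 0 and a median of 0.32, and the endothelial median was -0.08. Both lists turned with the fibroblast list mean as a covariate. There 13 of 15 macrophage genes lay above 0 (median 1.21), 7 of them at an unadjusted p under 0.05. Of the endothelial genes, 12 of 12 did (median 0.50), 1 at such a p. Natural killer and gamma-delta T cell genes had a median of 1.03 in that fit, with 4 of 9 at such a p, against 0.13 and 0 without the covariate. Over all genes, 874 of 18146 had such a p in that fit, in either direction. The covariate itself differed between the groups, so these turned values describe the fit and not a higher level of these cell types in the Cd8a-higher group. Macrophage list means ran from -3.31 to 0.80 in the Cd8a-higher and from -3.14 to 1.53 in the Cd8a-lower group. B cell, dendritic cell and thymic epithelium lists had medians of 0.06, -0.0093 and 0.11, with 0 genes at an unadjusted p under 0.05. By the second Cd8a probe the dendritic cell median was 0.67 with 2 of 14 genes at such a p, and that of thymic epithelium 0.98 with 3 of 16. In that split 1269 of 18146 genes had such a p in either direction. Thymic epithelium had 3 genes higher and 1 lower at such a p without lymphomas 7, 12 and 14, with a median of 0.39, where 979 of 18146 genes had such a p in either direction. What part cell content had in the differences beyond these fits was not tested.

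**Figure D4:**
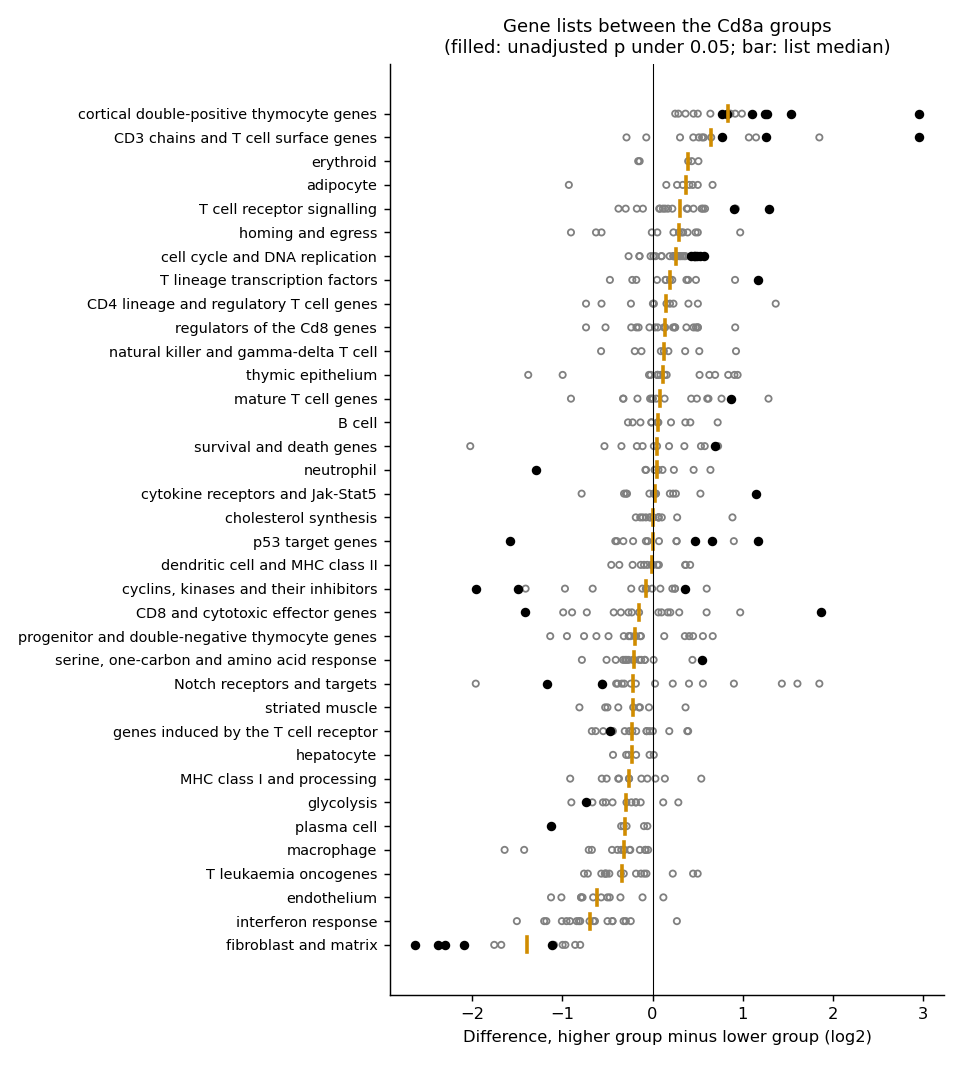
Differences between the Cd8a groups (horizontal axis, log2, higher group minus lower group) for the measured genes of each list (rows, ordered by median). Circles are genes, filled where the unadjusted p is under 0.05, and bars are list medians; double-positive genes lie highest with a median of 0.83 and fibroblast genes lowest with -1.40, while no gene passed the adjusted p.

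Along the whole order of Cd8a rather than in groups, 2 of 18146 genes passed an adjusted p under 0.05 (0.011%), and 2096 had an unadjusted p under 0.05 (11.6%). Myl10 rose by 1.35 on the log2 scale per unit of Cd8a (limma adjusted p = 4.29e-04) and Cd8b1 by 1.38 (adjusted p = 4.57e-04). The next was Degs2, a sphingolipid desaturase and hydroxylase, with a slope of 1.08 (adjusted p = 0.0771). Of the interferon list, 6 of 19 genes had a slope below 0 with an unadjusted p under 0.05, against 4.65% of all genes, and of the double-positive list 6 of 17 had one above 0, against 6.9%. The slopes were not refitted without the lowest lymphomas.

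The widest step in Cd8a gave a further comparison, chosen after the values were seen, of the 13 lymphomas above it with the 5 below it, numbers 8, 10, 4, 14 and 3. In this limma fit 7 genes passed an adjusted p under 0.05 (0.0386%), and 2038 genes (11.2%) had an unadjusted p under 0.05. Other cell markers moved with this step. Fibroblast genes had a median of -1.82 with 8 of 12 at an unadjusted p under 0.05, macrophage genes of -1.28 with 3 of 15, and endothelial genes of -1.01 with 12 of 12 below 0 and 2 at such a p. Their part in the 7 genes was not tested. Double-negative genes had a median of -0.65, with 14 of 18 below 0 and 2 lower at an unadjusted p under 0.05, and T cell surface genes one of 1.06, with 6 of 15 higher at such a p. Degs2 lay between -4.96 and -3.24 in the 5 lymphomas and between -1.61 and 0.36 in the 13, a difference of 3.68, 12.9-fold (adjusted p = 1.26e-05). The sets did not overlap, and within the 13 its 4 Cd8a-lower lymphomas, numbers 15, 9, 7 and 2, lay at -0.63 to 0.36. Myl10 lay between -5.46 and -4.02 in the 5 and between -2.77 and 0.75 in the 13, a difference of 3.77, 13.7-fold (adjusted p = 0.00370).

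Higher in the 5 lymphomas were Ctbp2, the ubiquitin ligase Trim2 and the Wnt receptor Ryk. Ctbp2 lay between 1.24 and 2.60 in the 5 and between -2.78 and 1.09 in the 13 (13 minus 5, -3.14, adjusted p = 0.0216). Trim2 lay between 2.53 and 4.10 against 1.10 to 2.72 (-1.76, adjusted p = 0.0216), where lymphoma 2 at 2.72 reached into the range of the 5. Ryk was at -2.77 (adjusted p = 0.0367), with lymphoma 7 at 1.93 and lymphoma 8 at 1.05 crossing. Lower in the 5 were Pglyrp2, an amidase that cleaves bacterial peptidoglycan (1.74, adjusted p = 0.0367), and Krba1 (1.22, adjusted p = 0.0367), neither of which overlapped. Cd8b1 differed by 3.50 (adjusted p = 0.0647), Rag2 by 1.35 (adjusted p = 0.207), Rmnd5a by 0.94 (adjusted p = 0.312) and Cd4 by 0.41 (adjusted p = 0.648) in this limma fit. Of the 5 lymphomas, number 14 is among those that stand apart.

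**Figure D5:**
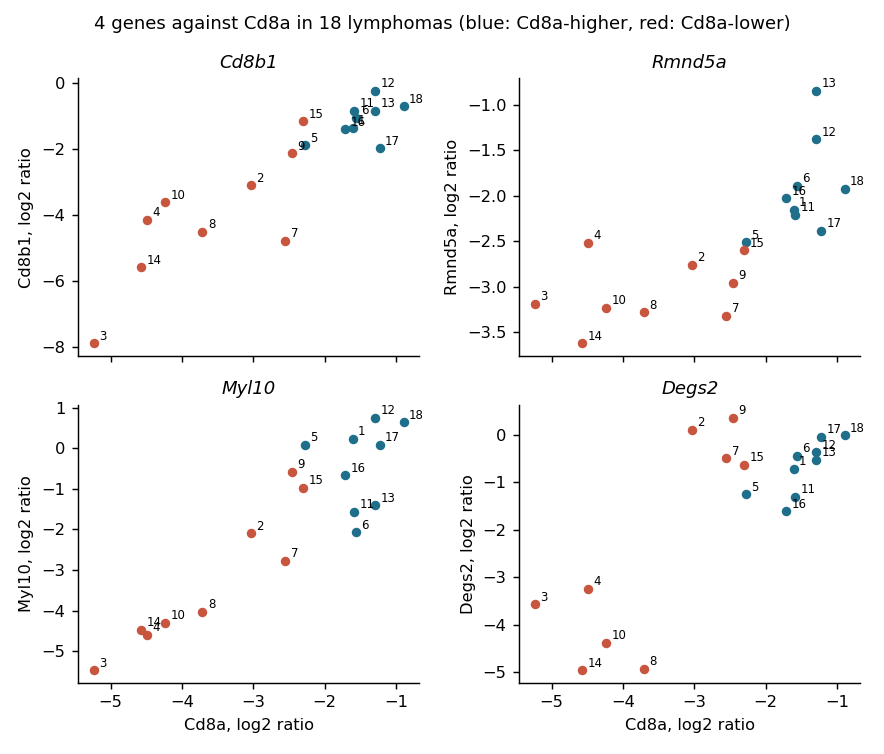
Log2 ratio of Cd8b1, Rmnd5a, Myl10 and Degs2 (vertical axes) against that of Cd8a (horizontal axes) in the 18 lymphomas, numbered, blue Cd8a-higher and red Cd8a-lower. Cd8b1 and Myl10 fall along the order of Cd8a, while Degs2 lies between -1.61 and 0.36 in 13 lymphomas and between -4.96 and -3.24 in the other 5.

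Of the genes deleted in all mice, Terc and Atm had no unadjusted p under 0.05 between the groups. Terc lay at -2.15, -1.20 and -0.68 in the Cd8a-higher and at -2.60, -1.70 and -0.28 in the Cd8a-lower group (difference 0.46, SE 0.26, limma p = 0.0854, adjusted p = 0.793). These levels average 2 unlike probes, with group means of -0.11 and -0.44 on the first and -2.36 and -2.96 on the second. In 5 of 35 alternative limma fits Terc had an unadjusted p under 0.05 (smallest adjusted p = 0.268). Atm had medians of -0.63 and -0.57. The position of their probes relative to the deletions is not known, so they check no label. The p53 transcript was not analysed here. Of the 4 sex-linked genes measured, 0 had an unadjusted p under 0.05 between the groups. Among 7694 probes without a gene name, 0 passed the adjusted p (smallest 0.760) and 486 (6.32%) had an unadjusted p under 0.05 in limma.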

How the data were processed

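RNA of 18 lymphomas and of a common thymus RNA was labelled with both dyes and read on 2-colour arrays. Trizol, a DNase digestion and column purification preceded labelling, per the labels' protocols. The dye-swapped pair of each lymphoma is joined in a single deposited column of log10 ratios. Its base and direction are not stated in it. Base 10 and lymphoma over thymus were inferred, and all values were multiplied by 3.3219. Turning the direction would exchange the groups and leave each difference between them at its value with the sign of the levels turned. Another base would rescale differences and leave the split and p-values as they are. Deposited log10 medians per array lay between -0.0114 and 0.0370. The sources used here do not state how features were extracted, normalized and joined over the dye swap. Between 2.27% and 7.79% of values were missing on an array. The number of arrays limits the precision.

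Of 41175 probes, 31700 carry 1 gene symbol in the platform annotation, which can be old, 47 carry several and 9428 carry none. Genes were given the average of those probes that hold a value on at least 14 of 18 arrays, for 18147 genes. Gene order and promoters come from RefSeq tables of GRCm38.p6, in which Cd8b1 was not matched to a promoter. The array columns held 0 identical pairs, and 0 columns of other samples were present. Groups were compared with limma 3.58.1 in R 4.3.3 (lmFit, eBayes, no covariate), with Benjamini-Hochberg adjustment over all genes but Cd8a and a threshold of 0.05. The fit was also run on simulated arrays in which genes varied independently and with the same spread in both groups. Those lack the outlying arrays and linked genes of the real data, so they cannot show how the fit behaves there, and their outcome is not used here. Members, gene lists and tests were chosen with earlier results of these data known, so the lists are described by counts and medians beside the same over all genes. Named genes are those with a difference of at least 1 and an adjusted p under 0.05, filled up to 15 per direction by smallest p, all T cell surface genes and Cd8 regulators, 4 genes of each other list by p, Atm and Terc, sex-linked genes and the 5 nearest measured neighbours on each side. Genes that passed in an alternative fit, and a few list members, were named after their values were seen.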

Additional observations from a re-analysis of the deposited data

Results flagged for a closer look

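Within each group of 9 lymphomas, the highest and lowest values of 90 genes, Cd8a included, were set against the nearest other value, with a gap counted where it exceeded 0.493 of the group's range. Chance flags about 1 in 20 groups, and 10 of 180 were flagged. Lymphoma 7 had the highest Jag1 of the Cd8a-lower group, at 3.41 against 1.03 in the next. In the Cd8a-higher group lymphoma 12 had the highest Ifng, at 1.10 against -1.05, and the lowest Mcm3, at 0.24 against 0.996. Lymphoma 17 had the lowest Txk of that group, -3.11 against -1.73, and the lowest Tmsb10, -3.47 against -1.47. Lymphoma 18 had the lowest Postn, -6.39 against -2.997. In the Cd8a-lower group lymphoma 14 had the lowest Mcm3, -0.46 against 0.57, and the lowest Rrm2, -1.71 against -0.49. Lymphoma 9 had the lowest Cdkn2a there, 2.33 against 3.20, and the highest Terc, -0.28 against -1.53.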

How the results depend on the processing

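No paired analysis was possible because each lymphoma is a single sample of 1 group and its number links it to no other. Under 35 alternatives, of which 3 were added after the data were seen, 85 of 89 followed genes kept their direction. The exceptions were Ccr9 (-0.18) and Lcn2 (0.0125) with the lymphomas split at the widest gap, Il2ra split by the second Cd8a probe (-0.10), without lymphomas 7, 12 and 14 (-0.12) or with the fibroblast list mean as a covariate (-0.87), and Col3a1 with that covariate (0.20). In the main comparison Lcn2 was at -1.30. Many of the followed genes were named for a small p in the main comparison, which largely fixes a kept direction in advance. Of the alternatives, 18 leave out a single lymphoma, and the split by the first Cd8a probe exchanged 0 lymphomas and repeats the main fit. The count of genes past the adjusted p was 0 in 32 of the 35 alternatives. It was 2 with Cd8a as a continuous covariate, 7 at the widest gap and 1 without lymphoma 8 (Mr1), so leaving out each lymphoma in turn gave 0 to 1. At an unadjusted p under 0.05 the count was 1110, and 849 to 1506 when each lymphoma was left out. It was 2096 with Cd8a as a continuous covariate, 2038 at the widest gap and 662 without the 7 lymphomas with few macrophage markers, where 11 samples remain. The cause of these shifts was not tested. Centring and quantile normalization of the arrays both left 0 genes past the adjusted p. The median SE of a difference was 0.25, with 9 lymphomas in each group. Spot brightness was not used here.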
